A study of Caenorhabditis elegans with 46 samples.

Results

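The experiment described here asked what the worm's own small RNA methyltransferase contributes to the microRNAs that survive periodate in body wall muscle lines. The quantity is the difference between 2 oxidation effects: log2 oxidised over untreated in the myo-3 henn-1(0) lines MLC900 and MLC901, minus the same in the myo-3 lines MLC889 and MLC890, whose henn-1 is intact. It is called the henn-1 difference below, and a negative value means that an arm survived oxidation less well without henn-1. It uses 8 of the 46 libraries of the series and all 473 worm microRNA arms of the 916 entries in each table, of which 395 had enough counts to be tested.

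All 8 libraries came from whole Caenorhabditis elegans larvae of the first stage (L1) that carry Ath-HEN1, the small RNA methyltransferase of the plant Arabidopsis thaliana, under the myo-3 driver. The groups were oxidised henn-1(0), untreated henn-1(0), oxidised with henn-1 and untreated with henn-1, with 2 libraries each, 1 per line. Each line gave 1 oxidised and 1 untreated library, so a line is the replicate. The labels do not say whether a henn-1(0) line was derived from a line with henn-1. 2 other sets served as measurements that share no library with these 8: lines with Ath-HEN1 under an ASE driver, for a pair of taste neurons, in henn-1(0) worms and in worms with henn-1 (8 libraries), and the wild type strain N2, which carries no Ath-HEN1 (4 libraries).

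Periodate oxidises the free 3′ end of a small RNA, which then fails to enter a library, whereas an end with a methyl group is spared. Animal microRNAs usually lack that group, so a plant methyltransferase expressed in one tissue marks the microRNAs of that tissue. HENN-1 is the worm's own enzyme of this kind. It is known to methylate the 21U-RNAs, which are the worm's piRNAs, and some 26G RNAs, and not most microRNAs. A microRNA arm that survives oxidation can thus have been methylated by either enzyme in worms with henn-1, and by Ath-HEN1 alone in henn-1(0) worms. The myo-3 promoter drives expression in body wall muscle. A hairpin gives 2 mature arms, 5p and 3p; the arm with more counts in untreated libraries is called the major arm here and the other the minor arm. RNA from whole worms does not tell fewer cells of a type from less RNA per cell.

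The oxidised henn-1(0) libraries held 10050568 (MLC900) and 10722042 (MLC901) counts, against 1137473 (MLC889) and 1444789 (MLC890) in oxidised libraries with henn-1. Untreated libraries held 13983991 and 23481086 in henn-1(0) worms and 13751599 and 14939062 in worms with henn-1. Replicate libraries correlated at 0.975 to 0.993 in log2 counts across the 395 arms. Small RNA libraries do not measure the henn-1 messenger, so the null genotype was not checked in them. The muscle origin was looked at with 1 arm, miR-1-3p of the conserved muscle microRNA. It rose on oxidation by 3.51 ± 0.41 in henn-1(0) worms and by 2.85 ± 0.40 in worms with henn-1, whereas in N2 it fell by 4.47 on the log2 scale; here and below, errors after ± on log2 values are standard errors of the edgeR fit over all 46 libraries.

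A minority of arms survived oxidation far less well without henn-1, led by miR-78-3p, miR-798-3p and both arms of miR-8198. Most arms were not called in the fit over all 46 libraries. Of the 395 arms 57 were called in the henn-1 difference (14.4%; edgeR's quasi-likelihood test, Benjamini-Hochberg adjusted p under 0.05). Of these 56 were lower in henn-1(0) worms (14.2%) and 1 was higher (0.253%), and the median over all arms was −0.03. In all 56 lower arms both henn-1(0) lines lay below both lines with henn-1, which held for 31.6% of all arms. The number of higher arms depends on how libraries are scaled: with RLE factors the median over all arms moved up by 0.94, and 53 arms were called higher and 46 lower. With the untreated library of MLC889 as the reference of the TMM scaling the median moved up by 1.27, and 99 arms were called higher and 43 lower. A fit of the myo-3 libraries alone tested 331 arms and called 143 higher and 36 lower, so that most arms were called there. With RLE factors and with the untreated TMM reference, all 56 lower arms stayed at least 1.80 below the median of all arms. Values below are therefore best read against that median, which is close to 0 under the scaling used here.

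The lower arms differed between the genotypes after oxidation, and none was called before it. In oxidised libraries all 56 were called lower in henn-1(0) worms than in worms with henn-1, and the 2 groups did not overlap in any of them. Of all arms 26.6% were called there, 18% lower and 8.61% higher (71 and 34 arms, against 86 and 9 with total counts, 59 and 139 with the untreated TMM reference, and 59 and 121 by RLE scaling), and in 27.8% the oxidised henn-1(0) libraries lay wholly below those with henn-1. The oxidised libraries are part of the contrast that chose the 56 arms, so these counts are a description. In untreated libraries none of the 395 arms was called by edgeR between the genotypes, although 29 passed an unadjusted p of 0.05. DESeq2 called 1 arm in untreated libraries, miR-8198-5p, which was 2.00 ± 0.51 higher in henn-1(0) worms (adjusted p = 0.0333), opposite to its direction after oxidation. Together the 56 arms made up 0.452% and 0.340% of the counts of the oxidised henn-1(0) libraries, against 9.79% and 9.71% of those of the oxidised libraries with henn-1. In untreated libraries their share was 3.40% and 2.18% in henn-1(0) worms, against 3.36% and 3.07% with henn-1. Most of this share was 1 arm, miR-62-3p.

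The 5 most negative differences were in arms of chromosome IV that are 20 or 21 nt long. miR-78-3p (hairpin on chromosome IV, 15165647 to 15165742, plus strand, between genes; coordinates here are those of WBcel235) stood at 0.234 and 0.400 scaled CPM (counts per 1e+06 counts of the library, after TMM scaling of its size) in oxidised henn-1(0) libraries, from 2 and 3 counts. In oxidised libraries with henn-1 it stood at 1269 and 2412, from 1571 and 4061 counts. Untreated libraries held 28.9 and 17.7 in henn-1(0) worms, against 26.7 and 48.5 with henn-1, so that the genotypes overlapped before oxidation and lay far apart after it. Its oxidation effect was −6.18 ± 0.90 in henn-1(0) worms, against 5.61 ± 0.75 with henn-1, a henn-1 difference of −11.79 ± 1.16 (adjusted p = 4.36e-10).

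miR-798-3p (chromosome IV, 14277312 to 14277387, minus strand, antisense to ilcr-1) stood at 0.703 and 0.267 in oxidised henn-1(0) libraries and at 586 and 793 in oxidised libraries with henn-1, where untreated libraries held 25.7 and 19.5 in henn-1(0) worms, against 13.2 and 14.0 with henn-1. Its henn-1 difference was −11.16 ± 0.83 (adjusted p = 2.61e-13). miR-8198-3p (chromosome IV, 16214390 to 16214461, minus strand, between genes) had 4 and 0 counts in oxidised henn-1(0) libraries and 388 and 544 with henn-1, a difference of −11.21 ± 0.85. Its other arm, miR-8198-5p, had 11 and 1 counts against 165 and 321, a difference of −9.99 ± 0.92. miR-8202-5p (chromosome IV, 6178148 to 6178231, minus strand, in an intron of unc-77) had 7 and 8 counts against 790 and 937, a difference of −9.39 ± 0.85. In each of these arms the oxidised libraries of the genotypes stood far apart, while the untreated ones were much closer. Lower arms also came from other chromosomes. Of these miR-4936-3p, 21 nt long, had 4 and 1 counts in oxidised henn-1(0) libraries against 137 and 189 with henn-1, a difference of −8.80 ± 0.73. miR-8196a-5p, 24 nt long, had 70 and 27 counts against 496 and 614, a difference of −7.14 ± 1.05. Its oxidation effect in henn-1(0) worms, −1.53, was not called.

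**Figure D1:**
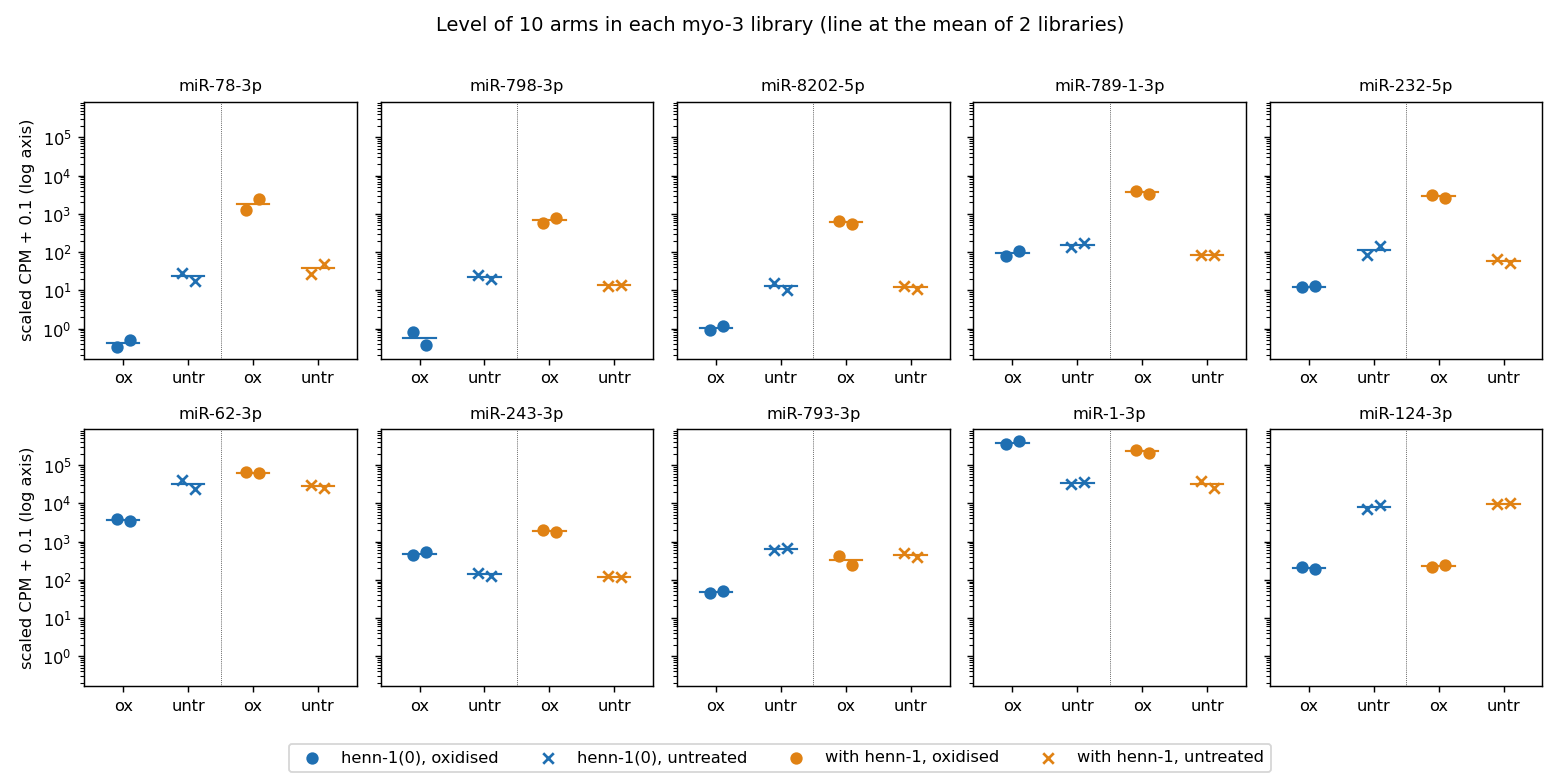
Scaled CPM (plus 0.1, log axis) of 10 arms in each myo-3 library: henn-1(0) lines in blue on the left, lines with henn-1 in orange on the right, circles for oxidised (ox) and crosses for untreated (untr) libraries, and a short line at the mean of 2. The oxidised henn-1(0) circles lie far below the oxidised circles with henn-1 for miR-78-3p, miR-798-3p and miR-8202-5p and close to them for miR-1-3p and miR-124-3p, while untreated crosses lie close together in every panel.

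The annotation places many piRNA genes around those of these hairpins that lie on chromosome IV. Chromosome IV carries 14714 annotated piRNA genes and the other chromosomes 78 to 202 each. Within 10 kb of the hairpin there were 67 for miR-78, 94 for miR-8198, 89 for miR-798 and 49 for miR-8202. There were 0 for miR-4936 and miR-8196a, and also 0 for miR-232, a hairpin of chromosome IV whose 5p arm was among the lower arms. Annotated piRNA genes on the same strand overlapped the mature arms of miR-78-3p (2 genes), miR-8198-3p (2) and miR-8198-5p (1). Such overlap was found in 4 of the 372 tested arms with an annotated mature position, and the remaining one, miR-790-5p, was not called (−1.53 ± 0.58, adjusted p = 0.0820). Reads of an arm and of a piRNA gene that overlaps it cannot be told apart in these counts. miR-52-5p, the most abundant arm of the untreated libraries, has 82 piRNA genes within 10 kb, and its henn-1 difference of −0.21 ± 0.37 was not called. Of the 56 lower arms 16 lay on chromosome IV, against 72 of all arms, and 14 had a piRNA gene within 10 kb of the hairpin, against 59 of the 393 arms with a hairpin position.

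The arms listed as linked to HENN-1 were all called lower. The list held miR-78, miR-243, miR-789-1, miR-789-2, miR-798 and miR-8198, and 6 of 6 major arms were called lower, with a median of −8.66 beside −0.03 over all arms. The list was drawn up with earlier results of these data known, so its count is a description. miR-789-1-3p and miR-789-2-3p come from 2 hairpins of chromosome IV (16740693 to 16740789 and 17309307 to 17309403, both minus strand) and have nearly the same counts, so reads are shared between the copies and they stand for 1 measurement. miR-789-1-3p had 685 and 781 counts in oxidised henn-1(0) libraries, which is 80.3 and 104 scaled CPM. In oxidised libraries with henn-1 it had 4857 and 5740 counts, or 3923 and 3409 scaled CPM. Its oxidation effect was −0.74 ± 0.33 in henn-1(0) worms, against 5.42 ± 0.39 with henn-1. The small effect without henn-1 turned with the scaling and stood 0.98 above the median effect of all arms. With RLE factors and with DESeq2 it was 0.98 and called higher, and 3 of the 6 arms of the list were then called higher without henn-1. The large effect with henn-1 was called higher under every scaling tried.

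miR-243-3p (hairpin within an intron of R08C7.12, plus strand of chromosome IV, 4450779 to 4450876) was the only arm of that list to rise in both genotypes under the scaling used here. It is known to be loaded into the Argonaute RDE-1. It stood at 450 and 521 scaled CPM in oxidised henn-1(0) libraries against 154 and 127 in untreated ones, and at 2036 and 1725 in oxidised libraries with henn-1 against 122 and 118 in untreated ones. It rose on oxidation in both genotypes, by 1.79 ± 0.36 without henn-1 and by 3.97 ± 0.40 with it, and the henn-1 difference was −2.18 ± 0.51 (adjusted p = 0.00115). This call was kept under 12 of 25 alternatives, and its value ranged from −2.53 to −0.53 over them. Without the oxidised library of MLC889 it was −0.66 and not called.

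miR-62-3p held most of the counts of the lower arms. miR-62 is a mirtron, a microRNA whose hairpin is itself a spliced intron, here within ugt-50 (plus strand of chromosome X, 12692608 to 12692665). miR-62-3p stood at 3874 and 3534 scaled CPM in oxidised henn-1(0) libraries, 0.329% and 0.247% of their counts. In oxidised libraries with henn-1 it stood at 66080 and 60470, which was 7.19% and 7.05% of their counts. Untreated libraries held 40780 and 23820 in henn-1(0) worms, against 29500 and 25510 with henn-1. The oxidation effect was −3.13 ± 0.38 in henn-1(0) worms, against 1.202 ± 0.36 with henn-1, a henn-1 difference of −4.33 ± 0.52 (adjusted p = 1.43e-08). The other arm of the same hairpin, miR-62-5p, differed by −0.41 ± 0.67 and was not called. The 3 other major arms on the mirtron list, miR-1018-3p, miR-1019-5p and miR-1020-5p, were not called either, at −0.37 to 0.42. The annotation gives the miR-1019 and miR-1020 hairpins as whole introns and that of miR-1018 as lying between genes.

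In most of the hairpins only 1 arm was called. The 56 arms came from 52 hairpins, of which 4 (miR-8198, miR-358, miR-789-1 and miR-8199) had both arms called lower. Of the 48 others 43 had a second arm that was tested. Hairpins with both arms lower had been set aside, so none of these 43 second arms could be lower under the scaling used here. None was called higher by edgeR there, although 4 passed an unadjusted p of 0.05 in either direction. None was called lower under any other scaling either. Of the 43 second arms 6 were called higher with RLE factors, 12 with the untreated TMM reference and 7 by DESeq2. Of all 395 arms 53, 99 and 68 were called higher under these scalings, so the higher calls do not set the second arms apart. Of the 43 second arms 21 averaged under 10 scaled CPM over the 8 libraries, a limit set after the data were seen, so that a loss in them could be missed. Over the 22 others the median henn-1 difference was 0.09, against −4.42 for the lower arm of the same hairpins. The same choice of hairpins enters both medians, so they are a description. The arms of 1 hairpin share every library's scaling, and the difference between them was not tested. In 24 of the 43 the lower arm was the minor one. miR-232-5p, a minor arm, had 103 and 97 counts in oxidised henn-1(0) libraries against 3833 and 4412 with henn-1, a difference of −8.75 ± 0.72 (adjusted p = 1.07e-12), and the major arm miR-232-3p differed by 0.44 ± 0.45. miR-84-3p, the minor arm of a let-7 family hairpin, had 5 and 5 counts against 166 and 147, a difference of −8.08 ± 0.99, and miR-84-5p differed by −1.13 ± 0.53, which was not called. miR-43-5p, the minor arm of a miR-2 family hairpin, differed by −5.16 ± 0.72 and miR-43-3p by 0.41 ± 0.43. Likewise miR-228-3p, the minor arm of a hairpin whose major arm is expressed in glia, differed by −4.80 ± 0.82 and miR-228-5p by 0.21 ± 0.34.

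In the miR-35 family, whose members are abundant in embryos, some minor arms and no major arm were called. None of its 8 major 3p arms was called, with a median of −0.64 and a range of −2.16 to 0.84. Of its 8 minor 5p arms 4 were called lower, with a median of −2.41 over the 8. miR-41-5p had 186 and 90 counts in oxidised henn-1(0) libraries against 753 and 1381 with henn-1, a difference of −5.44 ± 0.95. The other 3 were miR-36-5p at −3.99 ± 0.82, miR-42-5p at −3.11 ± 0.69 and miR-38-5p at −2.77 ± 0.83. miR-38-5p was kept under 7 of 25 alternatives and miR-42-5p under 17, and without the oxidised library of MLC889 they stood at −1.51 and −1.82 with no call. The major arm miR-38-3p stood at −2.16 ± 1.22. Over all hairpins 28 of 176 minor arms and 26 of 216 major arms were called lower, and minor arms made up 50% of the lower arms against 44.6% of all arms tested. The minor arms of the miR-35 family were looked at after their values were seen.

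Some lower arms were at or near 0 after oxidation without henn-1. In the oxidised henn-1(0) libraries together miR-255-5p, miR-4811-5p and miR-8192-5p had 0 counts. In oxidised worms with henn-1 they had 11, 4 and 7 counts. With 3 counts taken for the whole henn-1(0) group instead of 0, they were 20.1-fold, 7.32-fold and 12.8-fold lower in henn-1(0) worms. The counts with henn-1 were taken as exact there, so these folds are not lower limits. miR-5549-3p had 1 count against 44, a ratio of 242 of worms with henn-1 over henn-1(0) worms (95% interval 41.2 to 9750). miR-358-5p had 2 counts against 11 (ratio 30.2, 6.59 to 280) and miR-85-3p 1 count against 5 (ratio 27.4, 3.07 to 1300). The exact binomial intervals cover counting error only.

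**Figure D2:**
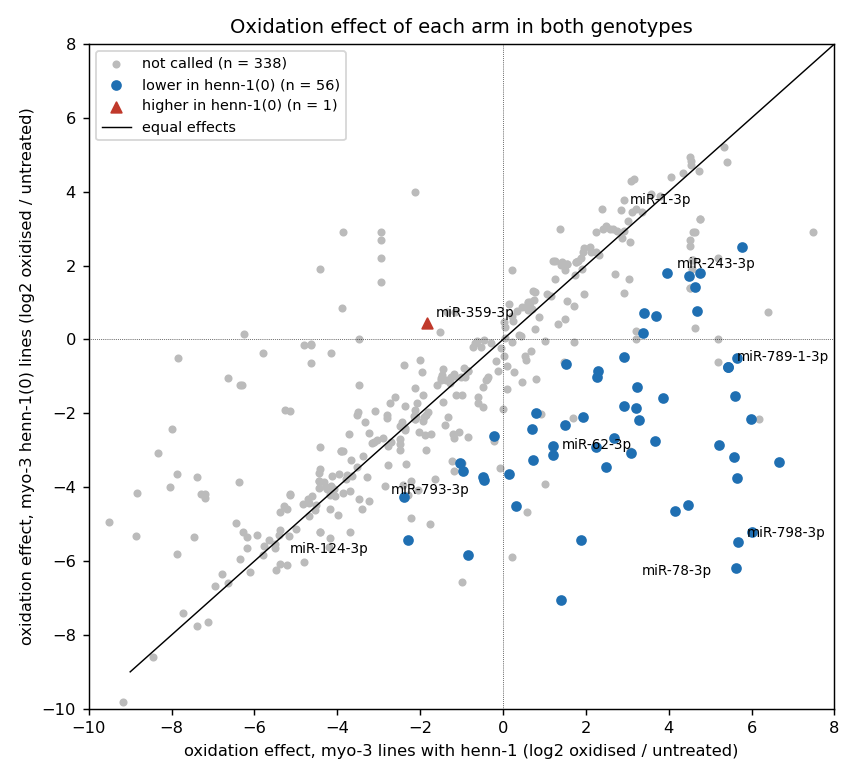
Oxidation effect (log2 oxidised over untreated) of each of the 395 tested arms in henn-1(0) lines (vertical axis) and in lines with henn-1 (horizontal axis), with the 56 arms called lower in blue, the arm called higher in red and the line of equal effects. The blue points lie below the line, many with a positive effect with henn-1 and a negative one without it, while miR-1-3p and miR-124-3p lie near the line.

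The lower arms can be sorted by what oxidation did in each genotype. With henn-1, 41 of the 56 rose on oxidation (108 of all 395 arms did, 27.3%), 3 fell and 12 were not called. Without henn-1, 39 fell (201 of all, 50.9%), 5 rose (18.7% of all did) and 12 were not called; 69.6% of all arms were called in henn-1(0) worms, against 59% with henn-1. Put together, 24 arms that rose with henn-1 fell without it, 12 that rose with henn-1 were not called without it, 12 that were not called with henn-1 fell without it, 5 rose in both genotypes and 3 fell in both. The 5 that still rose in henn-1(0) worms were miR-243-3p, miR-800-5p, miR-4814-3p, miR-2219-3p and miR-1833-3p, with henn-1 differences from −3.26 to −2.18. The 3 that fell in both were miR-249-3p, miR-251-5p and miR-1822-3p, whose henn-1 calls were kept under 8, 12 and 4 of 25 alternatives. These 2 sets were named for being small, after their values were seen. Since the henn-1 difference is made of these effects, their signs describe the 56 arms and are no further test. Rises and falls here are relative to the scaled library: with RLE factors 46 of the 56 rose with henn-1, and without it 23 fell and 12 rose. Over all arms 128 rose with henn-1 then, and without it 118 fell and 126 rose.

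Wild type worms without any plant enzyme gave a measurement of the same arms in other libraries. Of the 56 lower arms 48 rose on oxidation in N2, which is 85.7% of them, against 82 of all 395 arms (20.8%; 69.6% were called in N2 in either direction). Read the other way, 58.5% of the 82 arms that rose in N2 were lower in the henn-1 difference. In the myo-3 lines the 82 arms had a median oxidation effect of −0.74 without henn-1 and 3.26 with it. In henn-1(0) worms 18 of the 82 rose and 34 fell, against 74 and 201 of all 395 arms. With henn-1 62 of the 82 rose and none fell, against 108 and 125 of all arms. The 82 arms held 1.10% and 1.08% of the counts of oxidised henn-1(0) libraries, against 11.2% and 11.3% of those of oxidised libraries with henn-1. Across the 395 arms the N2 effect and the henn-1 difference had a Spearman correlation of −0.544, given as a description since arms of a library share its depth and scaling. With RLE factors 55 of the 56 arms, and 138 of all, rose in N2.

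Under the scaling used here the overlap was not complete in either direction. There were 34 arms that rose in N2 and were not called in the henn-1 difference. The 8 lower arms that did not rise in N2 under that scaling were miR-255-5p, miR-85-3p, miR-1823-3p, miR-249-3p, miR-791-5p, miR-124-5p, miR-251-5p and miR-1822-3p. Of these miR-1822-3p was called lower in N2 at −1.72, which is above the N2 median over all arms of −2.20, and it was not called with RLE factors, at 0.69. The other 7 were not called in N2 under the scaling used here, and with RLE factors all 7 were called higher there. miR-1823-3p stood at 1.99 and 1.60 scaled CPM in oxidised henn-1(0) libraries and at 16.2 and 10.1 in oxidised libraries with henn-1, against 15.9 to 28.4 in the 4 untreated libraries. Its henn-1 difference was −3.24 ± 0.65 (adjusted p = 0.000198), with an effect of −3.73 in henn-1(0) worms, against −0.49 with henn-1.

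None of the arms that mark muscle was called. Over the 4 arms on the muscle list the median henn-1 difference was 0.41. miR-1-3p made up 29.5% and 29.6% of the counts of oxidised henn-1(0) libraries and 26.7% and 24.4% of those of oxidised libraries with henn-1, where untreated libraries held 2.51% and 2.85% in henn-1(0) worms, against 4.02% and 2.70% with henn-1. It was thus the most abundant arm of all 4 oxidised libraries. Its henn-1 difference was 0.67 ± 0.52 (adjusted p = 0.590). miR-86-5p, a second arm on that list, rose by 2.11 ± 0.29 in henn-1(0) worms, against 1.76 ± 0.28 with henn-1, a difference of 0.34 ± 0.39. miR-67-3p was not called in either genotype, at −0.44 ± 0.34 in henn-1(0) worms, against 0.01 ± 0.34 with henn-1. miR-785-3p fell in both, by 3.85 and 4.32 on the log2 scale. A p above the threshold does not show that the 4 arms were equal in the genotypes, and with RLE factors 2 of the 4 were called higher in henn-1(0) worms as the median over all arms moved up.

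Most arms that mark other tissues fell on oxidation in both genotypes. miR-124-3p, the conserved neuronal microRNA, stood at 212 and 191 scaled CPM in oxidised henn-1(0) libraries and at 221 and 241 in oxidised libraries with henn-1, against 6886 to 9903 in the 4 untreated libraries. Its effect was −5.29 ± 0.43 in henn-1(0) worms, against −5.41 ± 0.43 with henn-1. miR-60-3p, abundant in the intestine, fell by 4.19 in henn-1(0) worms, against 5.14 with henn-1 on the log2 scale, a difference of 0.95 ± 0.56 that was not called. lsy-6-3p, which sets the left ASE neuron apart, had 32 and 12 counts in oxidised henn-1(0) libraries and 0 and 3 with henn-1, and its difference was not called. Of 12 neuronal arms 11 fell without henn-1 and 10 with it, beside 50.9% and 31.6% of all arms. The exceptions were miR-71-5p, which rose by 0.81 ± 0.33 in henn-1(0) worms and stood at 0.61 ± 0.33 with no call with henn-1, and miR-793-3p, which was not called with henn-1. All 5 intestinal, 4 pharyngeal and 4 epidermal, seam and glial major arms fell in both genotypes under the scaling used here. With RLE factors 3 of the 5 intestinal, 3 of the 4 pharyngeal and 2 of the 4 epidermal, seam and glial arms still fell without henn-1, and 4, 3 and 3 with it, while the neuronal counts of 11 and 10 were the same. In the henn-1 difference minor arms called lower were 3 of 12 neuronal (miR-124-5p, miR-234-5p, miR-791-5p) and 1 of 5 intestinal (miR-240-5p). So were 1 of 4 pharyngeal (miR-255-5p) and 1 of 4 epidermal, seam and glial (miR-228-3p), beside 28 of all 176 minor arms. miR-234-5p at −5.06 and miR-240-5p at −6.17 were kept under all 25 alternatives. Of the major arms 1 of the 12 neuronal ones was called, miR-793-3p, and none of the 5 intestinal or the 4 epidermal, seam and glial ones was. Of the 4 pharyngeal arms 1 was called lower, miR-251-5p at −2.29 ± 0.54, a call that was kept under 12 of 25 alternatives and lost, at −0.57, without the oxidised library of MLC889.

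miR-793-3p, a let-7 relative on chromosome X (13857962 to 13858053, plus strand), was the only major arm of 7 let-7 family hairpins to be called. It stood at 43.7 and 49.9 scaled CPM in oxidised henn-1(0) libraries and at 422 and 240 in oxidised libraries with henn-1. Untreated libraries held 610 and 692 in henn-1(0) worms, against 507 and 397 with henn-1. The difference was −3.35 ± 0.48 (adjusted p = 6.93e-07), and it was called under all 25 alternatives. Of its relatives, miR-794-5p rose in both genotypes, by 2.99 ± 0.41 in henn-1(0) worms, against 2.42 ± 0.41 with henn-1, and differed by 0.57 ± 0.55. miR-48-5p had 8 and 11 counts in oxidised henn-1(0) libraries and 0 in both with henn-1, at a depth several times lower, and was not called. None of the major arms of the miR-51, miR-58, miR-64, miR-72, miR-44, miR-2 and lin-4 families was called, and their medians ran from −0.01 to 0.74. This rests on the scaling: with the untreated TMM reference 6 of 6 miR-51, 4 of 5 miR-58, 5 of 5 miR-64, 3 of 3 miR-72, 3 of 4 miR-44 and 3 of 4 miR-2 family arms were called higher. Relative to the median of all arms the medians of these 7 families ran from 0.06 to 0.83 under that scaling and from 0.02 to 0.77 as reported.

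**Figure D3:**
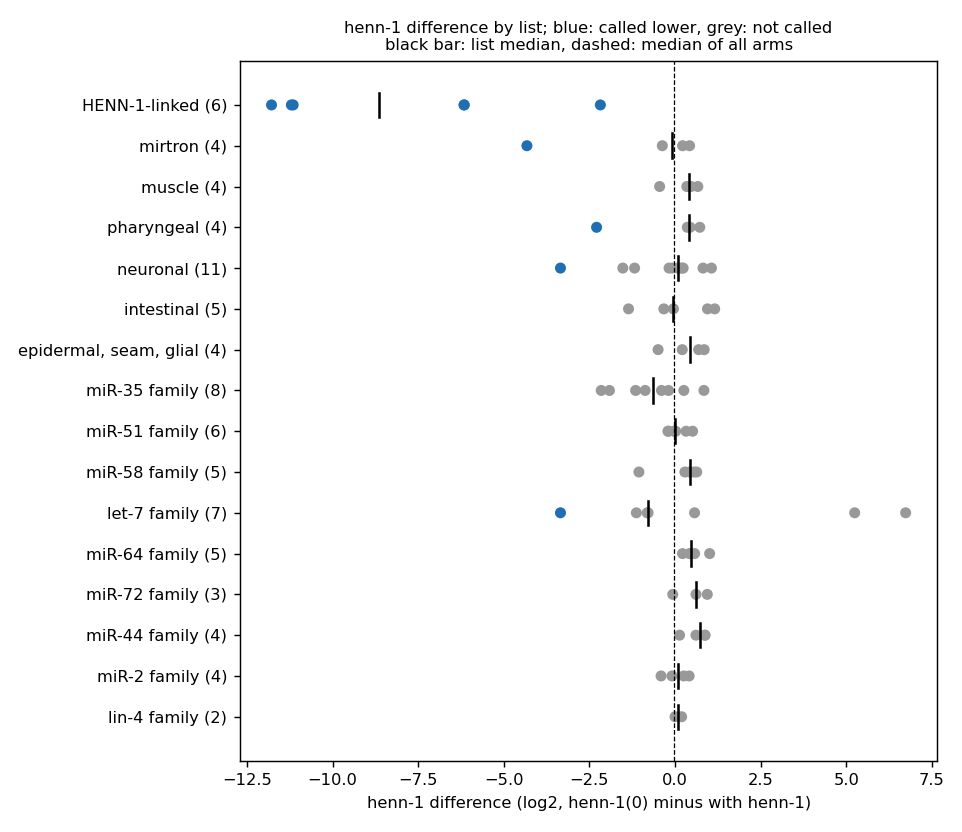
Henn-1 difference (log2, henn-1(0) minus with henn-1) of the major arms of 16 lists, with the number of arms in brackets, called lower in blue and not called in grey, the list median as a black bar and the median of all 395 arms as a dashed line. The HENN-1-linked arms lie apart at a median of −8.66, and single blue arms stand out among the mirtron, pharyngeal, neuronal and let-7 family lists; miR-2953-3p of the neuronal list, at 0 counts in all 4 oxidised libraries, is not drawn, and the 2 grey let-7 family arms on the right, miR-48-5p and miR-795-5p, have 0 counts in the oxidised libraries with henn-1.

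1 arm was higher without henn-1. miR-359-3p (chromosome X, 3004291 to 3004400, plus strand, between genes) had 77 and 90 counts in oxidised henn-1(0) libraries and 4 and 1 with henn-1, or 9.02 and 12 against 3.23 and 0.594 scaled CPM. Its effect was 0.45 in henn-1(0) worms, against −1.84 with henn-1, a difference of 2.29 ± 0.70 (adjusted p = 0.0170), in which both henn-1(0) lines lay above both lines with henn-1 as in 24.6% of all arms. This call was kept under 23 of 25 alternatives. It was lost without the oxidised library of MLC890, at 1.41 (adjusted p = 0.349), and without that of MLC901, at 2.07 (adjusted p = 0.0649).

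The oxidised libraries of the genotypes differ in depth along with henn-1. When the oxidised henn-1(0) libraries were thinned to the mean depth of the oxidised libraries with henn-1, an alternative added after the data were seen, 52 arms were called lower and 1 higher, and 51 of the 57 calls were shared. In the ASE lines the oxidised libraries had like depths, 1011040 and 1055614 counts in henn-1(0) worms, against 632514 and 1267210 with henn-1. The untreated ASE libraries did not, with 13254450 and 14186151 counts in henn-1(0) worms, against 43302423 and 39573520 with henn-1.

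Those ASE lines repeat the loss of henn-1 with another driver in other libraries. There 58% of all arms were called. Of the 56 arms 41 were called lower (14.2% of all arms were), 4 were called higher (43.8% of all arms were) and 11 were not called. Their median henn-1 difference was −4.42 with myo-3 and −3.25 with ASE, beside medians over all arms of −0.03 and 2.05; 52 of the 56 lay below the ASE median. The ASE median also moves with the scaling, to 0.19 with RLE factors. With these 50 of the 56 were called lower and 1 higher, against 88 and 62 of all 395 arms. miR-78-3p differed by −7.71 in the ASE lines, miR-798-3p by −7.86, miR-8198-3p by −8.54, miR-789-1-3p by −5.25, miR-62-3p by −2.59 and miR-243-3p by −3.004, and each of these 6 was called lower. The 4 arms called higher with ASE were miR-793-3p, miR-249-3p, miR-791-5p and miR-124-5p, at 2.14 to 3.95. Of their myo-3 calls that of miR-793-3p was kept under all 25 alternatives, and those of miR-249-3p, miR-791-5p and miR-124-5p under 8, 9 and 12. Without the oxidised library of MLC889 these 3 stood at −1.44, −0.85 and −0.96 with no call. Relative to the median of all arms the 4 stood at 0.09 to 1.89 with ASE and 2.38 to 3.32 below it with myo-3. Each of the 4 was called lower in the test of myo-3 against ASE itself (33.7% of all arms were called, 32.9% lower and 0.759% higher), miR-793-3p at −6.49 ± 0.68 (adjusted p = 5.63e-09) and miR-249-3p at −7.09 ± 1.18 (adjusted p = 5.07e-05). With RLE factors miR-793-3p at −3.62 and miR-249-3p at −4.23 were still called in this test, and miR-791-5p (adjusted p = 0.0735) and miR-124-5p (adjusted p = 0.217) were not. With the untreated TMM reference these 2 were likewise not called, and with total counts all 4 were. Over all arms RLE factors gave 3 lower and 26 higher calls in this test. Across the 395 arms the differences with the drivers had a Spearman correlation of 0.461.

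**Figure D4:**
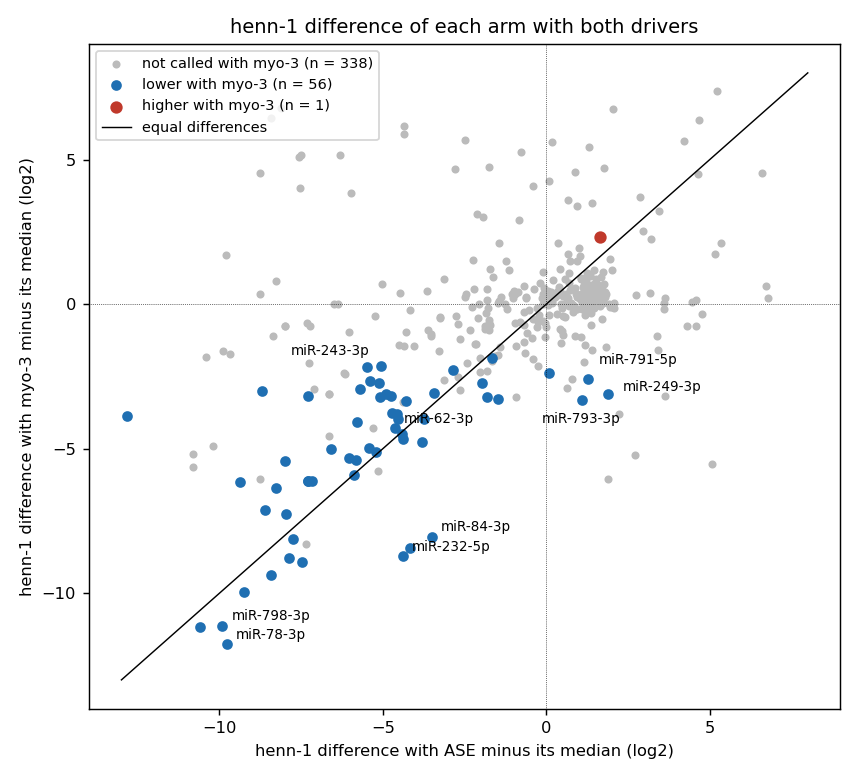
Henn-1 difference with the myo-3 driver (vertical axis) against that with the ASE driver (horizontal axis), each in log2 relative to its median over the 395 tested arms, with arms called lower with myo-3 in blue, the arm called higher in red and a line of equal differences. Most blue points lie at lower left, miR-78-3p and miR-798-3p among the farthest, while miR-793-3p, miR-249-3p and miR-791-5p lie below 0 with myo-3 and above 0 with ASE.

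By length and position the lower arms were a mixed set. Of the 54 with an annotated length 7 were 21 nt long, against 48 of 372 of all arms, and the median was 22 nt in both. There were 30 5p and 26 3p arms among the 56, and 188 and 207 among all. The hairpin lay between genes for 34 of the 56, in an intron for 10, antisense to a gene for 9 and in an exon for 3, against 229, 108, 45 and 11 among all arms. None of these counts was tested. Of the 121 arms with a mean of at least 100 scaled CPM over the 8 libraries 14 were called, against 57 of all 395 arms. That mean includes the oxidised libraries with henn-1, by which the lower arms were chosen, so it does not give their abundance before oxidation. In untreated libraries miR-62-3p alone held 1.94% to 3.15% of the counts.

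How many arms were called each way as reported and under 9 alternatives is given by the plot of called arms by setting, which does not show the leave-one-out fits. Of the 57 calls, 28 were kept under all 25 alternatives, all of them lower. Without the oxidised library of MLC889 alone, which is the TMM reference, 23 of the 56 lower arms lost their call, and without any other one of the 8 libraries 2 to 7 did, as long as the 395 arms of the reported fit were kept. With the filter on low counts applied anew to each reduced set, 23 lost it without that library, 3 without the untreated library of MLC889 and 16 to 24 without any of the other 6. The 28 include miR-78-3p, miR-798-3p, both arms of miR-8198, miR-8202-5p, miR-789-1-3p, miR-62-3p, miR-232-5p, miR-84-3p and miR-793-3p.

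**Figure D5:**
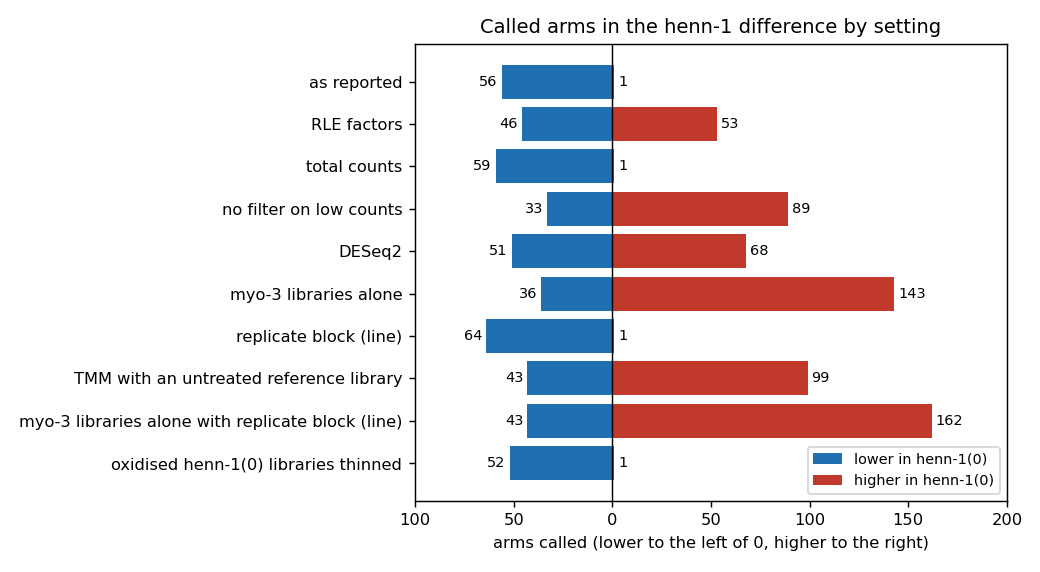
Number of arms called in the henn-1 difference (adjusted p under 0.05) as reported and under 9 alternatives, lower in henn-1(0) worms to the left of 0 in blue and higher to the right in red, each with its count. The lower arms number between 33 and 64 in every bar, while the higher arms number 1 as reported and in 3 of the alternatives, and 53 to 162 in the other 6. Fits of the myo-3 libraries alone tested 331 arms and the fit without a filter 467, against 395 in the others.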

How the data were processed

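Total RNA of whole L1 worms was size-selected and made into small RNA libraries, per the labels' protocols. Each library's table, as the authors deposited it, lists expected counts of mature arms. The unit was read from the values, since some arms have fractional counts. cutadapt 1.2.1, HTSeq 0.6.1p1 and WBcel235 are named per the submitters' processing notes; no source used here names the aligner, and how reads shared by near-identical copies were split is unknown. Of 916 entries 443 were not worm arms and held 0 counts.

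Rounded counts went into edgeR 4.0.16 under R 4.3.3, with limma 3.58.1: filter with a minimum count of 10, TMM factors, and 1 robust quasi-likelihood model of 22 groups over 46 libraries, whose groups share the estimate of the spread. The henn-1 difference is an interaction contrast. P-values were adjusted over the 395 arms by Benjamini-Hochberg and called at 0.05. Effects of single lines used log2 CPM with a prior count of 2. The TMM reference, chosen by edgeR, was the oxidised library of MLC889, and another choice shifts all arms together. DESeq2 1.42.0, with its own size factors, was an alternative. The fit was checked on simulated counts.

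Replicates are lines, and nothing says that a line's libraries came from separate cultures. P-values rest on the spread that all 22 groups share, not on that between the myo-3 lines alone. Among those groups N2 and the rps-5 line MLC558 gave repeat libraries of the same strain. Oxidised and untreated libraries pair by the strain named in the labels: their deviations from the group means correlated at 0.406 in henn-1(0) and 0.287 with henn-1 over 395 arms. The replicate block on line moved no count of calls by over 1.5 times.

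Arms were named by a rule: both arms of miR-1, miR-60, miR-124 and lsy-6; the 12 largest called differences each way with lines apart, and the 8 largest with a mean of at least 100 scaled CPM; the 5 largest of each other contrast; and all members of the lists. It covers more arms than are described singly. Further arms are named beside small counts after their values were seen. Members, lists and alternatives were chosen with earlier results of these data known. Hairpin, mature arm and piRNA positions come from the Ensembl annotation of WBcel235. No sequences were used here.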

Additional observations from a re-analysis of the deposited data

Results flagged for a closer look

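The henn-1 difference with the myo-3 driver was set against that with the ASE driver for 64 arms, the 57 called ones and the 8 arms of miR-60, miR-124, miR-1 and lsy-6, with 1 arm in both sets. For 22 of them the difference itself differed between the drivers (edgeR's quasi-likelihood test of the difference of differences, adjusted p under 0.05). Of the 22, 21 were lower with myo-3, as were 130 of the 395 arms, and the median over all arms was −2.24, so the values are to be read against it. The overall count turns with the scaling: 3 arms were lower and 26 higher with RLE factors, 3 and 23 with an untreated TMM reference library, and 35 and 5 with total counts. Among the tissue markers miR-1-3p stood at −3.15, miR-1-5p at −2.72, miR-124-3p at −3.44, miR-124-5p at −4.56, miR-60-3p at −2.45 and miR-60-5p at −2.57. Among the other called arms miR-249-3p stood at −7.09, miR-84-3p at −6.65, miR-793-3p at −6.49, miR-232-5p at −6.43, miR-255-5p at −6.36, miR-791-5p at −5.93, miR-78-3p at −4.07 and miR-8189-3p at −3.88. Nearer the median were miR-1823-3p at −3.49, miR-798-3p at −3.30, miR-228-3p at −3.06, miR-8202-5p at −3.01, miR-4936-3p at −2.97, miR-1822-3p at −2.29 and miR-5546-3p at −2.12. The 1 arm higher with myo-3 was miR-238-5p at 3.604, whose henn-1 difference was −3.05 with myo-3, against −6.65 with ASE. Relative to the median of all arms the farthest of the 22 were miR-238-5p at 5.84 and miR-249-3p at −4.85, and the nearest miR-1822-3p at −0.05. Under total counts, RLE factors and TMM with an untreated reference library, 14 of the 22 were called under none, and 4 were called under all 3. These 4 were miR-232-5p, at −5.32, −3.55 and −3.68; miR-238-5p, at 4.68, 6.42 and 6.37; miR-249-3p, at −5.95, −4.23 and −4.31; and miR-793-3p, at −5.36, −3.62 and −3.73. The part of the scaling in the other 18 was not tested beyond these values.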

How the results depend on the processing

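The henn-1 difference was refitted under 25 alternatives, 11 of them added after the data were seen (an untreated TMM reference library, thinning, the line block within the 8 myo-3 libraries, and the 8 leave-one-out fits with the filter reapplied). Arms called numbered 57 as reported, 60 with total counts, 65 with the replicate block on line (all 57 shared) and 53 with thinned libraries. They numbered 99 with RLE factors, 122 without a filter on low counts, 119 with DESeq2, 142 with the untreated reference library, 179 with the myo-3 libraries alone and 205 with those and the replicate block. Without the filter 467 arms were tested. With the myo-3 libraries alone 331 were, of which 143 were called higher, or 162 with the block. Leave-one-out fits gave 51 to 102 calls, or 54 to 120 with the filter reapplied (87 without the oxidised library of MLC890, 111 without the untreated one, and 106 and 103 without the oxidised library of MLC900 or MLC901); without the oxidised library of MLC889, which is the TMM reference, it was 102 (69 higher, 33 lower). Lower arms numbered 32 to 64 over all alternatives, so the change was mostly in higher arms. The choice of reference library shifted the scaling factors, as they enter the henn-1 difference, by 1.22 to 1.70 (log2) over the 23 untreated libraries and by −0.13 to 1.95 over the 23 oxidised ones. Of the 56 lower arms 28 kept their call under all 25 alternatives. Between oxidised libraries of the genotypes 105 arms were called, against 180 with RLE factors, 192 without a filter, 189 with DESeq2, 216 with the myo-3 libraries alone, 198 with the untreated reference library and 68 to 147 in leave-one-out fits, 68 without the oxidised library of MLC890 and 147 without that of MLC889. With the filter reapplied it was 103 to 192, with 191 without the untreated library of MLC890 and 166 and 159 without the oxidised library of MLC900 or MLC901. Untreated libraries gave 0 calls in all but DESeq2 (1), and the total of called oxidation effects moved by less than 1.5 times. Its split moved more: in henn-1(0) worms 74 rose and 201 fell as reported, against 127 and 118 with DESeq2, 126 and 118 with RLE factors and 111 and 141 with the untreated reference library. Among the arms named above whose reported value was below 0 with no call, those called higher under an alternative included miR-52-5p, at 1.22 without a filter, 1.43 with the myo-3 libraries alone, 1.11 with the untreated reference library, 1.46 with the myo-3 libraries alone and the replicate block, and 1.25 and 1.26 without the oxidised library of MLC890 or the untreated library of MLC901 and the filter reapplied; and miR-67-3p, at 1.201 with the myo-3 libraries alone and 1.24 with the block added. The cause was not tested beyond the shift of the median. Depth limits arms with few counts in the oxidised libraries with henn-1, where changes could be missed.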
